A study of Homo sapiens with 12 samples.

Results

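The genes described here encode components of cullin ubiquitin ligases: 8 cullins (CUL1, CUL2, CUL3, CUL4A, CUL4B, CUL5, CUL7 and CUL9), 13 receptors of the DCAF family, 8 FBXW and 15 FBXL F-box proteins. They were taken by symbol from the platform annotation (CUL, DCAF, FBXW or FBXL followed by digits, with CUL4A and CUL4B counted), which gave 44 of the 14884 genes named there. The proteasome subunits (symbols starting PSMA to PSMG) and 3 further ligase genes had been sought in the same way, but none of them was named for a probe set in the annotation used here, so they were not analysed here. The cells were HuH-7, a single human hepatoma line derived from hepatocytes, and all cultures were transfected with Lipofectamine RNAiMAX for 72 h. They received a miR1908-5p mimic, the mimic control, a miR1908-5p inhibitor or the inhibitor control, with both controls coupled to the dye Dy547. The sample labels give the oligonucleotide concentration as 9 nM and the methods as 10 nM. Each of the 4 treatments was carried out on 3 occasions (repeats 1 to 3), so that n = 3 per group and 12 arrays in all.

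Cullins are elongated scaffold proteins. Each binds a RING protein that recruits the ubiquitin-loaded E2 enzyme at one end and, at the other, an adaptor with an exchangeable substrate receptor, and the ubiquitin chain built on the substrate directs it to the proteasome. CUL1 works with SKP1 and F-box proteins, named FBXW when they carry WD40 repeats and FBXL when they carry leucine-rich repeats, whereas CUL4A and CUL4B work with DCAF receptors. Covalent attachment of NEDD8 activates cullins and the COP9 signalosome removes it. In hepatocytes such ligases take part in control of the cell cycle, hypoxia and oxidative stress responses, and iron and lipid metabolism.

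The transfected mimic and the target of the inhibitor correspond to one mature miRNA, shown because the seed, bases 2 to 8 from the 5′ end (capitals), is the part of a miRNA that pairs with its targets. It has 21 bases and lies at chr11:61815209-61815229 on the minus strand (RefSeq, GRCh38.p14), within the gene MIR1908.
hsa-miR-1908-5p: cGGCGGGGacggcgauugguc
Transcripts that pair with this seed contain CCCCGCC. Pairing sites in the ligase transcripts were not searched.

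The values are log2 signals as deposited, 1 for each of 53617 probe sets and array, and the brightest probe set stood for a gene. Over the 12 arrays the mean log2 signal of the 44 ligase genes lay between 3.48 (FBXW12) and 9.47 (DCAF7), and 5 of them (FBXW12, FBXL13, FBXL15, FBXL16 and FBXL22) had a mean under 5. Array medians over all probe sets were 4.99 to 5.15. The SD across probe sets was lower in mimic replicate 3 (1.95) and mimic control replicate 3 (1.98) than in the other arrays (2.02 to 2.06). On mimic replicate 3, 31 of the 44 ligase genes lay below their own mean over the arrays, with a median deviation of -0.13, against -0.08 for all named genes. Of 12 hepatocyte markers 9 were named. The highest of them, AFP, had log2 signals of 12.69 to 13.21, and the lowest, APOA1, of 6.84 to 8.08. Of 12 markers of leukocytes, endothelium, fibroblasts and bile duct cells 7 were named, and while DCN stayed between 2.53 and 3.27, CD68 reached 8.82 and LUM ranged from 4.50 to 7.69. In RNA of whole cultures, fewer cells expressing a gene and less of its RNA per cell cannot be told apart.

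The first question was whether ligase genes differed between mimic and mimic control. No ligase gene passed an adjusted p of 0.05 in limma (lowest adjusted p = 0.997, CUL9), against 0.0149% of all probe sets (8 of 53617). At an unadjusted p under 0.05 stood 2 of 44 (4.55%), CUL9 and FBXL4, both higher with the mimic, against 4.61% of all probe sets, which is a share near the background. Counted by sign, 24 ligase genes lay above the mimic control and 20 below it (45.5%), against 55.2% of all named genes below. Their median log2 fold change was 0.02, against -0.03 over all named genes. The 95% interval of the difference stayed within 1 log2 unit on either side of 0, that is, within a doubling and a halving, for 42 of the 44 genes (92.8% of all named genes). The exceptions were FBXL4, whose interval reached 1.16, and DCAF15, whose interval reached -1.02. The mimic and mimic control arrays did not overlap for 7 ligase genes (15.9%), against 9.96% of named genes: CUL2, CUL5 and DCAF17 were lower and CUL9, FBXL4, FBXL5 and FBXL6 higher.

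Of the 8 cullins, 5 were lower and 3 higher with the mimic, none past the adjusted threshold. CUL9, a large cullin of the cytoplasm that binds p53, had log2 signals of 6.09, 5.99 and 5.98 with the mimic (6.02 ± 0.06; SD, n = 3) and of 5.67, 5.84 and 5.54 with the mimic control (5.69 ± 0.15). The 2 groups did not overlap. This made a log2 fold change of 0.34 with a standard error of 0.13 (adjusted p = 0.997 in limma). Signals of CUL9 in the inhibitor arms were 6.16, 5.91 and 5.99 with the inhibitor and 6.02, 5.92 and 6.06 with the inhibitor control, so that the mimic control was the group that stood below the other 3. CUL4A, 1 of the 2 paralogous scaffolds for DCAF receptors, was higher with the mimic by 0.27 (standard error 0.14), and its paralogue CUL4B by 0.00 (0.13). CUL5, the scaffold used by SOCS box proteins, was at -0.17 (0.14), with 8.48, 8.44 and 8.30 on the mimic arrays and 8.55, 8.60 and 8.57 on the mimic control arrays. CUL2, the scaffold that binds VHL, was at -0.14 (0.13), with 9.36, 9.34 and 9.21 with the mimic and 9.46, 9.46 and 9.41 with the mimic control. In both of these genes the groups were separate, although the 95% interval of the difference held 0. Fold changes of the remaining cullins were -0.08 (0.13) for CUL1, the scaffold of F-box proteins, -0.11 (0.12) for CUL3, the scaffold of BTB domain proteins, and -0.03 (0.15) for CUL7, which pairs with FBXW8.

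**Figure D1:**
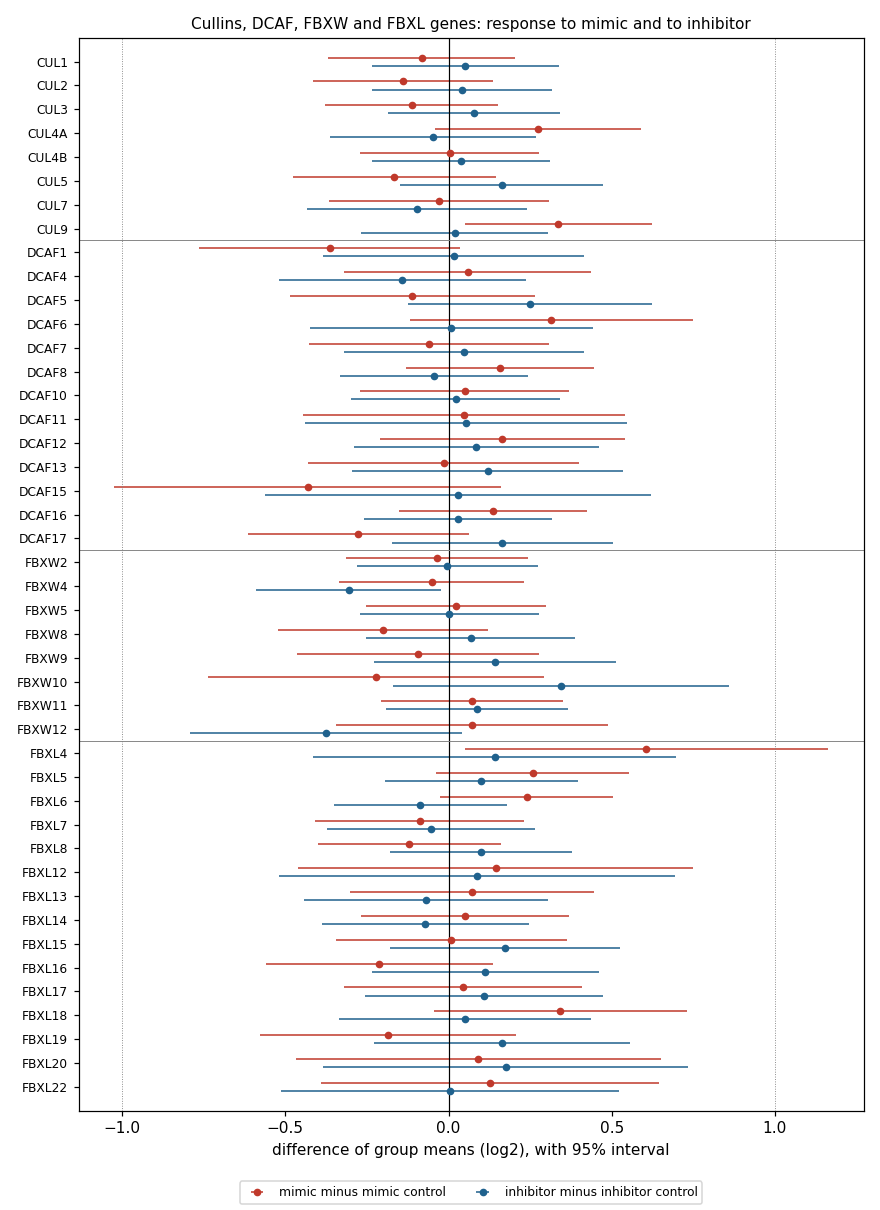
Log2 difference of group means (x axis) for each of the 44 ligase genes, with its 95% interval from limma, for mimic minus mimic control and inhibitor minus inhibitor control; n = 3 arrays per group and dotted lines mark a doubling and a halving. With the mimic only the intervals of CUL9 and FBXL4 leave out 0, and with the inhibitor only that of FBXW4, none of them past the adjusted threshold.

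Among the 13 DCAF receptors 7 were higher and 6 lower with the mimic, with a median of 0.05 and none at an unadjusted p under 0.05. The lowest fold change of any ligase gene was that of DCAF15, the receptor that aryl sulfonamide drugs redirect to the splicing factor RBM39, at -0.43 (standard error 0.27). Its signals were 7.31, 7.27 and 6.49 with the mimic and 7.74, 7.62 and 7.01 with the mimic control, and both groups were lowest on the third occasion, so that they overlapped. DCAF1, the receptor that the HIV protein Vpr binds, was at -0.36 (0.18), with 7.74, 7.67 and 7.33 with the mimic and 8.18, 8.13 and 7.52 with the mimic control. DCAF6, which also binds nuclear receptors, was at 0.31 (0.20), with 8.72, 8.37 and 8.11 with the mimic and 8.35, 8.11 and 7.80 with the mimic control. In each of these 3 genes the mimic array lay on the same side of its control in all 3 repeats. With the repeat as a block in the fit they joined CUL9 and FBXL4 at an unadjusted p under 0.05, which made 5 of 44, against 7.75% of all probe sets in that fit, and no ligase gene passed the adjusted threshold (lowest adjusted p = 0.431). DCAF17, a nucleolar protein mutated in Woodhouse-Sakati syndrome, had 6.78, 6.99 and 6.73 with the mimic and 7.05, 7.13 and 7.15 with the mimic control, a fold change of -0.28 (0.15).

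The FBXW genes spanned the narrowest range of the 4 families. Of 8, 5 were lower and 3 higher with the mimic, with fold changes between -0.22 (FBXW10) and 0.07 (FBXW11 and FBXW12) and none at an unadjusted p under 0.05. FBXW11, a β-TrCP protein that recognises phosphorylated IκB and β-catenin, was at 0.07 (standard error 0.13), and FBXW8, the partner of CUL7, at -0.20 (0.15).

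Of the 15 FBXL genes 11 were higher and 4 lower with the mimic (26.7%, against 55.2% of all named genes), with a median of 0.07. The split was the same with the inhibitor (26.7% lower, against 43.5% of all named genes), with a median of 0.10. FBXL4 is a mitochondrial F-box protein that limits mitophagy and whose loss depletes mitochondrial DNA in patients. With the mimic it had the highest fold change of all ligase genes, 0.61 (standard error 0.25, 95% interval from 0.05 to 1.16, adjusted p = 1.00 in limma). Its signals were 9.41, 8.58 and 8.83 with the mimic (8.94 ± 0.42; SD, n = 3) and 8.40, 8.07 and 8.53 with the mimic control (8.33 ± 0.24). All mimic arrays were above all mimic control arrays, but the size rests in part on the first: within repeats 1, 2 and 3 the differences were 1.01, 0.51 and 0.30, and without mimic replicate 1 the fold change was 0.37. FBXL5, the iron-sensing receptor that targets the iron regulatory protein IRP2, had 9.15, 9.01 and 8.92 with the mimic and 8.82, 8.69 and 8.80 with the mimic control, a fold change of 0.26 (0.14). FBXL6 had 5.47, 5.67 and 5.63 with the mimic and 5.35, 5.34 and 5.37 with the mimic control, a fold change of 0.24 (0.12). FBXL18 was at 0.34 (0.18) by its brighter probe set and at -0.11 by its other one, so that its direction depends on the probe set. DCAF6, the other gene with 2 probe sets, was at 0.33 by the dimmer of them.

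**Figure D2:**
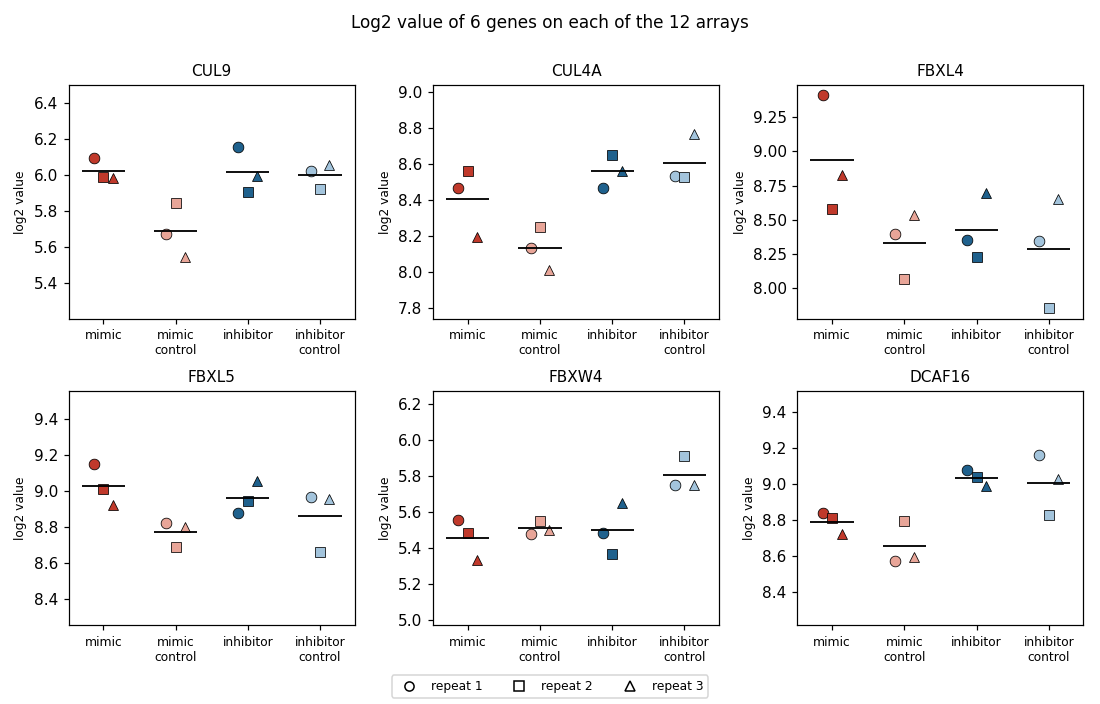
Deposited log2 signals (y axis) of CUL9, CUL4A, FBXL4, FBXL5, FBXW4 and DCAF16 on the 12 arrays, 3 per group, with bars at the group means and symbols for the repeats. CUL9 and CUL4A are lowest in the mimic control, FBXL4 is highest in the mimic group with its replicate 1 at 9.41, and FBXW4 is highest in the inhibitor control.

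Paired by occasion, 23 of the 44 ligase genes lay on the same side of the mimic control in all 3 repeats (11 lower, 12 higher; 52.3%), against 35.2% of all named genes. The direction over the ligase genes as a set was not constant, with medians of 0.08, -0.04 and -0.03 in repeats 1, 2 and 3.

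The inhibitor was compared with its own control in the same model. No ligase gene passed the adjusted threshold, against 0.00187% of all probe sets (1 of 53617). FBXW4 alone stood at an unadjusted p under 0.05 (1 of 44, 2.27%), against 2.92% of all probe sets. FBXW4, also called dactylin, is an F-box protein with few known substrates. It had 5.49, 5.37 and 5.65 with the inhibitor and 5.75, 5.91 and 5.75 with the inhibitor control, a fold change of -0.31 (standard error 0.13, adjusted p = 1.00 in limma), and without replicate 2 of all groups it was -0.18. With the mimic it had 5.56, 5.49 and 5.33 and with the mimic control 5.48, 5.55 and 5.50, so that the inhibitor control arrays lay above those of the other 3 groups. Its signal may include that of a near-identical pseudogene copy, and this was not tested. Groups did not overlap for 2 ligase genes (4.55%), FBXW4 and the dim FBXW12, both lower, against 7.04% of named genes. In all, 33 were higher and 11 lower (25.0%) with the inhibitor, against 43.5% of all named genes lower. Their median was 0.05, against 0.02 over all named genes. The medians within repeats 1, 2 and 3 were -0.02, 0.12 and 0.05, so that repeat 1 lay on the other side of 0. All 44 intervals stayed within 1 log2 unit of 0, from -0.79 to 0.86. Cullin fold changes lay between -0.10 (CUL7) and 0.16 (CUL5), and FBXL4 was at 0.14. Of the ligase genes, 7 (15.9%) lay on the same side of the inhibitor control in all 3 repeats, against 28.1% of all named genes.

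The 2 responses did not differ past the threshold for any ligase gene. In the test of the mimic response minus the inhibitor response, 0% of all probe sets passed the adjusted threshold and 4.24% stood at an unadjusted p under 0.05, among them none of the 44 (lowest adjusted p = 0.998 in limma). Differences between responses ranged from -0.57 (FBXW10) to 0.47 (FBXL4). For FBXW10 the mimic and inhibitor arrays averaged 7.32 and 7.38, and the mimic control and inhibitor control arrays 7.54 and 7.03. The 2 controls thus lay further apart than the 2 treated groups. With repeat as a block, FBXW10 (-0.57) and DCAF15 (-0.46) stood at an unadjusted p under 0.05 (4.55%), against 7.02% of all probe sets in that fit.

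The 2 control oligonucleotides were set against each other to see which ligase genes differed between groups that received neither mimic nor inhibitor. None passed the adjusted threshold, against 0.00373% of all probe sets. At an unadjusted p under 0.05 stood 5 (11.4%), against 5.28% of all probe sets. CUL4A was lower in the mimic control by 0.47 on the log2 scale (standard error 0.14, adjusted p = 0.829 in limma), with 8.14, 8.25 and 8.01 in the mimic control and 8.53, 8.53 and 8.77 in the inhibitor control. CUL9 (-0.31), FBXW4 (-0.30) and DCAF16 (-0.35) were also lower, and CUL5 was higher by 0.32. DCAF16 is a CUL4 substrate receptor located in the nucleus and used by electrophilic degrader compounds. For DCAF16 the signals were 8.58, 8.80 and 8.59 in the mimic control and 9.16, 8.83 and 9.03 in the inhibitor control. Of these 5 genes, CUL4A, CUL9, FBXW4 and DCAF16 had all mimic control arrays below all inhibitor control arrays. CUL5 had them all above, with 8.55, 8.60 and 8.57 in the mimic control and 8.43, 8.04 and 8.30 in the inhibitor control. The share of all named genes separated in this way was not computed. The 2 comparisons share the mimic control arrays, and for CUL9 the fold change of mimic over mimic control was 0.34, for CUL4A 0.27 and for DCAF16 0.14. Without replicate 3 of all groups CUL4A was at -0.33 and no longer at an unadjusted p under 0.05. FBXW10 was higher in the mimic control by 0.50, the largest difference of any ligase gene between the controls. It was not at an unadjusted p under 0.05 in the main fit, but was so with the repeat as a block.

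The occasion was the other known difference between arrays. In a model with group and repeat, 7.22% of all probe sets passed the adjusted threshold between repeat 3 and repeat 1, and 24.6% stood at an unadjusted p under 0.05. Of the ligase genes 4 (9.09%) passed it, all lower in repeat 3, against 9.62% of all named genes. At an unadjusted p under 0.05 stood 7 (15.9%), also all lower, against 27.2% of all named genes. DCAF15 fell by 0.59 (standard error 0.12, adjusted p = 0.0194), averaging 7.01 over the 4 arrays of repeat 3, 7.60 over those of repeat 1 and 7.61 over those of repeat 2. DCAF6 fell by 0.47 (0.10, adjusted p = 0.0240), with a mean of 7.85 in repeat 3, against 8.32 in repeat 1. FBXL12, an F-box protein reported to act on cyclin-dependent kinase inhibitors, fell by 0.62 (0.15, adjusted p = 0.0379), and FBXW10 by 0.53 (0.14, adjusted p = 0.0487). FBXW10 has a near-identical paralogue, whose share of the signal was not tested. Each of the 4 was lower in repeat 3 in all 4 groups, although by unequal amounts. FBXL12 had 7.08 in repeat 3 and 8.04 in repeat 1 with the mimic, and 6.94 in repeat 3 and 7.92 in repeat 1 with the mimic control, whereas with the inhibitor it had 7.75 in repeat 3 and 8.04 in repeat 1. The arrays with the narrowest spread, mimic replicate 3 and mimic control replicate 3, belong to repeat 3. Without these arrays no ligase gene passed the adjusted threshold, and the calls over all probe sets dropped to 342, against 3872 with them. DCAF6 (-0.40), DCAF13 (-0.37), DCAF15 (-0.44), FBXW10 (-0.45) and FBXL12 (-0.32) still stood at an unadjusted p under 0.05. They made up 11.4% of the ligase genes, a share below the 14.4% of all probe sets in that fit. Cell type markers also differed between these occasions. Of the 9 hepatocyte markers 3 passed the adjusted threshold lower in repeat 3 (APOA1, TTR and APOH), and the log2 of the summed signal of the list was 15.22 to 15.35 in repeat 3 and 15.41 to 15.53 in repeat 1. Of the 7 markers of other cells CD68 (-0.72) and LUM (-2.24) passed it. The log2 summed signal of that list was 8.40 to 8.89 in repeat 3 and 9.05 to 9.50 in repeat 1. CD68 and LUM were the only 2 of the list lower in repeat 3, and 5 were higher, with a median of 0.08. Without the 2 narrow arrays 0 of the 9 hepatocyte markers and 1 of the 7 markers of other cells (LUM) passed the adjusted threshold. The part of these markers in the fall of the ligase genes was not tested. DCAF1, DCAF7, a scaffold protein that binds the kinase DYRK1A, and DCAF13, which also acts in ribosomal RNA processing, were at -0.30, -0.31 and -0.30 without passing the adjusted threshold. Among the DCAF genes 11 of 13 were lower in repeat 3 with a median of -0.24, and among the cullins 5 of 8 with a median of -0.01. Over all named genes 53.5% were lower, with a median of -0.02. The DCAF genes lay low mainly on the 2 narrow arrays. Their median deviation from their own means was -0.18 on mimic replicate 3 and -0.28 on mimic control replicate 3. It was 0.03 on inhibitor replicate 3 and -0.01 on inhibitor control replicate 3.

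**Figure D3:**
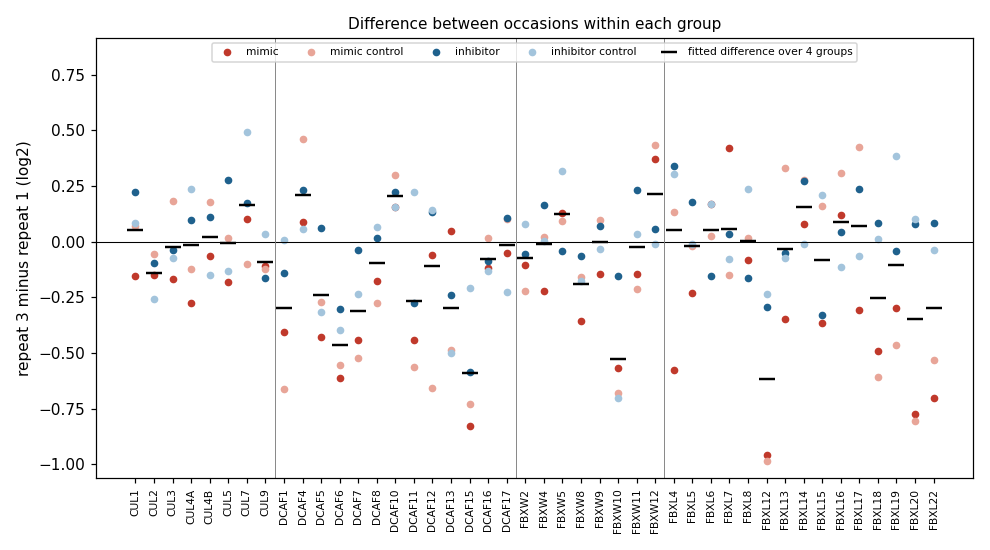
Difference in log2 signal between repeat 3 and repeat 1 (y axis) for each of the 44 ligase genes, with 1 point per group (1 array minus 1 array) and a bar at the fitted difference over the 4 groups. All 4 points of DCAF15, DCAF6, FBXL12 and FBXW10 are below 0, and in FBXL12 those of mimic and mimic control are far below those of the inhibitor arms.

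After removal of group means, the 44 ligase genes varied together only in part. Over the 12 arrays the correlation of a ligase gene with the mean of the others had a median of 0.36 and was above 0 for 33 of 44, and the other named genes correlated with the ligase mean with a median of 0.15. DCAF7 (r = 0.91), FBXL12 (0.90) and DCAF1 (0.87) were closest to the mean of the others, and FBXW12 (-0.59) and DCAF10 (-0.59) ran against it. These arrays share their occasions, and the correlations are given as a description.

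The rest of the pathway was described from 4 lists. Of 29 adaptors and receptors outside the families above, 22 were named, and 18 of them were lower with the mimic and 4 higher, with a median of -0.10. DET1, a receptor of a CUL4 ligase, was the only one at an unadjusted p under 0.05, with 7.79 ± 0.19 with the mimic, against 8.16 ± 0.07 in its control (fold change -0.38, standard error 0.17). SOCS3, a feedback inhibitor of cytokine signalling that binds CUL5, was at -0.30 (0.17), and KLHL20, a CUL3 receptor, was at -0.28 (0.15) with the mimic and at 0.35 (0.15) with the inhibitor. Of 23 genes of NEDD8 conjugation and the COP9 signalosome 14 were named, and 8 were lower and 6 higher with the mimic. NAE1, a subunit of the NEDD8-activating enzyme, was at 0.46 (0.17), with 9.25 ± 0.19 with the mimic, against 8.79 ± 0.24 in its control, at an unadjusted p under 0.05. The COP9 subunits COPS8 (-0.26, 0.16) and COPS2 (-0.19, 0.13) were on the other side of 0. The list of 23 proteasome cofactors holds genes that regulate, assemble or deliver substrates to the proteasome, and some subunits outside the PSMA to PSMG symbols. Of the 23, 16 were named, 12 of them lower and 4 higher with the mimic. UBQLN2, a shuttle that carries ubiquitinated proteins to the proteasome, was the only cofactor at an unadjusted p under 0.05, with 7.36 ± 0.51 with the mimic, against 8.03 ± 0.25 in its control (-0.67, 0.27). SEM1, a small subunit of the proteasome lid, was at -0.26 (0.16), and TXNL1, a proteasome-bound thioredoxin, at 0.14 (0.13). Of 18 genes for ubiquitin and its E1 and E2 enzymes 10 were named, 7 lower and 3 higher with the mimic, and none stood at an unadjusted p under 0.05. The E2 enzymes UBE2R2, UBE2G2 and UBE2G1 were at -0.28 (0.15), -0.17 (0.13) and 0.15 (0.13). The shares lower with the mimic were 81.8%, 57.1%, 75.0% and 70.0% in list order, against 55.2% of all named genes. The shares at an unadjusted p under 0.05 were 4.55%, 7.14%, 6.25% and 0%, against 4.61% of all probe sets. No gene of the 4 lists passed the adjusted threshold with mimic or inhibitor. Between repeat 3 and repeat 1, 5 proteasome cofactors fell and 1 rose past it (37.5% of those named), as did 4 and 1 of the adaptors and receptors (22.7%), against 9.62% of all named genes. In the remaining lists 0 of the 14 genes of NEDD8 conjugation and the COP9 signalosome passed it. Among the 10 genes for ubiquitin, E1 and E2 enzymes the count was also 0. Without the 2 narrow arrays the counts for proteasome cofactors and for adaptors and receptors were 0 and 1.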

How the data were processed

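RNA of 12 HuH-7 cultures was measured on Affymetrix human gene arrays. The deposited values are log2 signals that the authors normalized in Affymetrix Expression Console, whose version is not given in the sources used here, and no further scaling was applied. The platform annotation gave a symbol to 16098 probe sets, and all their Entrez IDs matched the RefSeq gene table. The test was limma 3.58.1 under R 4.3.3, fitted to 4 groups over 12 arrays, or to group and repeat for repeat 3 against repeat 1, and p-values were adjusted by Benjamini-Hochberg over the 53617 probe sets. Standard errors and 95% intervals come from these fits. P-values measure the spread between cultures of 1 line, and precision is limited by the number of arrays. The fit was also run on simulated data, with noise drawn independently for each array and shifts added to some probe sets. That run could not show how variation shared within an occasion affects the fit, because its noise had none.

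Signals on every array are given for ligase genes at an unadjusted p under 0.05 with mimic or inhibitor, and fold changes for every cullin. In each of the 4 lists of other pathway genes up to 3 were named, by the lowest p with the mimic. Other genes named, and those in the figures, were chosen after their values were seen. The members and lists were chosen with earlier results of these data known.

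Replicate numbers mark 3 separate occasions, as the design text says. With group means removed, same-numbered arrays correlated at a median of 0.24 (18 pairs) and differently numbered ones at -0.14 (36 pairs), and 10 of 12 arrays were closest to one of their own number. The alternatives tried were the repeat as a replicate block, quantile normalization done again, arrays set to 1 common median, dropping probe sets with a mean under 5, the methods' t-test, fits restricted to the 6 arrays in question, a prior with trend and robust estimation, the mean of a gene's probe sets, other readings of the symbols, and leaving out arrays or occasions. Leaving out the 2 narrow arrays, the counts of groups that did not overlap without arrays, and the block and narrow-array fits for the lists, were added after seeing the data.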

Additional observations from a re-analysis of the deposited data

How the results depend on the processing

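No ligase gene passed the adjusted threshold in limma under any alternative run for mimic, inhibitor, their difference or the controls. At an unadjusted p under 0.05 the mimic count was 2 (4.55%, against 4.61% of all probe sets). It was 5 under the replicate block (11.4%, against 7.75%). By the methods' t-test it was also 5 (11.4%, against 4.04%), namely CUL5, CUL9, DCAF17, FBXL5 and FBXL6, none after Benjamini-Hochberg. The count was 1 with only the 6 arrays compared (2.27%, against 3.59%), and 0 to 5 with arrays or occasions left out. CUL9 and FBXL4 were both lost without mimic replicate 1 and without mimic control replicate 1. The count was 5 without mimic replicate 3 (11.4%, against 5.12% of all probe sets). The inhibitor count of 1 (2.27%, against 2.92%) became 0 under renewed quantile normalization, a common median or only the 6 arrays. In these fits the shares of all probe sets were 3.03%, 2.94% and 3.53%. With arrays left out the inhibitor count ran from 0 to 1. Without inhibitor control replicate 1, and without replicate 1 of all groups, the 1 call was not FBXW4 but FBXW10, higher with the inhibitor. The count for the difference of responses, 0 otherwise, was 2 under the replicate block (4.55%, against 7.02%). It was 1 without the 2 narrow arrays (2.27%, against 4.13%) and 0 to 2 with arrays left out. The count of 5 for the controls was 8 under the replicate block, with dim probe sets left out or with an intensity trend and robust prior, 1 with only the 6 arrays, and 1 to 8 with arrays left out. The count of 4 adjusted calls for repeat 3 was 2 under renewed quantile normalization and 0 without the 2 narrow arrays. It ran from 0 to 4 with arrays left out, being 0 without replicate 1 or 3 of mimic or of mimic control and without replicate 2. The unadjusted count of 7 ran from 4 to 9. DCAF1 was at -0.19 under renewed quantile normalization, and without the 2 narrow arrays DCAF1 was at -0.08 and DCAF7 at -0.15. CUL5, 0.32 between the controls, was at 0.21 without inhibitor control replicate 2.

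Groups did not overlap for 8 to 21 ligase genes with the mimic when arrays or occasions were left out, in place of 7, and fewer arrays per group overlap less by construction. The 8 were 18.2%, against 19.7% of named genes with the same array left out, and the 21, reached without replicate 3 and equally without the 2 narrow arrays, 47.7% against 37.4%. With the inhibitor it was 3 to 14 in place of 2; the 14, without replicate 1, were 31.8% against 31.7% of named genes. The median with the mimic, 0.02, ran from -0.0645 (without mimic control replicate 3) to 0.0257. The medians with the inhibitor kept their sign. The cause of these changes was not tested. Under the block the adjusted calls over all probe sets were 24 with the mimic (in place of 8), 0 with the inhibitor (1) and 11 between the controls (2). Of the pathway lists it left DET1, NAE1 and UBQLN2 at an unadjusted p under 0.05 with the mimic and added KLHL20 and DTL, none past the adjusted threshold. For the ligase genes it changed no call beyond those given.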
